A study of Homo sapiens with 6 samples.

Results

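The genes described here are 10 members of the S100 family, which encodes small calcium-binding proteins: S100A2, S100A4, S100A6, S100A7, S100A8, S100A9, S100A11, S100A14, S100A16 and S100P. They were taken by gene symbol, and each probe set (a group of short probes for 1 transcript) whose array annotation gave exactly 1 of these symbols was kept, whatever its level. This gave 12 probe sets of the 41091 that carry 1 gene symbol, and 10 genes of 19775. S100A6 and S100A8 had 2 probe sets each and the other genes 1 each.

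S100 proteins carry a pair of EF-hand calcium-binding loops and usually work as dimers. Binding of calcium opens a surface through which they attach to partner proteins such as annexins, myosins and co-chaperones, and several are also released from cells and act on surface receptors. In stratified and glandular epithelia the S100A7, S100A8 and S100A9 proteins are known as antimicrobial and stress-responsive products, S100A2 is typical of basal epithelial cells, and S100A4 is better known from motile and mesenchymal cells. Most of the family lies in 1 cluster on chromosome 1, next to the genes of the cornified envelope, the cross-linked protein layer of differentiated keratinocytes.

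The study raised the level of MBD2, a protein that binds methylated CpG dinucleotides, in MCF-10A cells, an immortalized but nontransformed human breast epithelial line, and compared the transcriptome with that of control MCF-10A cells on Affymetrix U133 Plus 2.0 arrays. The MBD2 group was 3 arrays of cells given an MBD2 lentivirus and the control group 3 arrays of MCF-10A cells without it. The design text calls the controls non-infected and the arrays technical replicates, while the published methods describe an empty-virus control and biological replicates, so the p-values given here measure only the spread between these arrays, which may be technical. The promoter that drives MBD2 in the virus and the number of separate infections are not given in the sources used here.

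Values are log2 expression as deposited, where a difference of 1 is a 2-fold change. MBD2 itself, at probe set 202484_s_at, stood at 12.17, 11.72 and 12.50 on the MBD2 arrays against 8.92, 9.03 and 9.68 on the control arrays, a log2 fold change of 2.92 (SE 0.28, limma, adjusted p = 0.0157), and its other 3 probe sets did not pass the test. Control arrays 1 and 2 were nearly alike, with 5 genes more than 2-fold apart, as were MBD2 arrays 2 and 3 with 95, whereas every other pair of arrays had 1477 to 2886. MBD2 array 1 had 1620 and 1477 such genes against control arrays 1 and 2, but 2877 and 2565 against MBD2 arrays 2 and 3. By this count it was nearer to those control arrays than to its own group. The hybridization controls averaged 9.72 and 9.79 on MBD2 arrays 2 and 3 and 10.72 to 11.09 on the other 4 arrays. Of the basal markers, 6 of 10 genes were measured (median level 12.67, highest KRT14) and none of their 15 probe sets passed the test. Even so, 6 of the 15, from EGFR, KRT5 and KRT14, had every MBD2 array below every control array, against 12.3% of all probe sets. None had every MBD2 array above, and the median log2 fold change was -0.33. The 8 luminal genes had a median level of 7.39 (highest MUC1), and only ELF5 was below 5 on every array. Of 23 luminal probe sets, 3 were called lower (all MUC1) and 1 higher (KRT8), against 0.978% and 0.898% of all probe sets. KRT18 had a log2 fold change of 1.66 with separate groups and no call (limma, adjusted p = 0.22). None of 30 fibroblast probe sets was called, with a summed linear level of 1587.6 to 9127.4 on the MBD2 arrays and 1158.4 to 1973.4 on the control arrays. The top of that MBD2 range was array 1, where the matrix gene DCN read 12.57 at 209335_at, against 7.59 and 8.54 on the other 2 MBD2 arrays and 9.74, 9.60 and 8.43 on the control arrays. Of the 30 fibroblast probe sets, 2 had every MBD2 array above every control array and 3 below. Those above were COL1A1 at 1556499_s_at (log2 fold change 1.28, limma, adjusted p = 0.108) and COL1A2 at 202404_s_at (1.42, limma, adjusted p = 0.1325). In such bulk RNA, fewer cells of a type and less RNA per cell cannot be told apart.

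S100 transcripts were lower in MBD2 cells for a subset of the genes and higher for none. A probe set was called when the Benjamini-Hochberg adjusted p of the limma fit over all 41091 probe sets was under 0.05 and the change was at least 1.5-fold. By this rule 5 of the 12 probe sets, of 4 genes, fell (S100A8 at both probe sets, S100A9, S100P and S100A14), against 0.978% of all probe sets called lower. The 10 genes were chosen with earlier results of these data known, so this contrast only describes them. None of the 12 was called higher, against 0.898% of all probe sets. Every MBD2 array lay below every control array in 6 of the 12 probe sets, against 12.3% of all, and above every control array in 1, against 10.4% of all. The median log2 fold change was -1.26 over the 12 probe sets and -0.0047 over all probe sets, and at an unadjusted p under 0.05 the 12 held 6 lower and 1 higher.

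The calls depended on which arrays were kept. They were lost or fewer without any 1 of the nearly alike arrays, but not without MBD2 array 1 or control array 3. Leaving out MBD2 array 2 gave 0 of the 12 probe sets called lower, as did leaving out control array 1 or 2, without MBD2 array 3 it was 1, without MBD2 array 1 it was 5 and without control array 3 it was 6, while the number called lower among all probe sets moved between 18 and 1924 over the same 6 fits. When each nearly identical pair of arrays was averaged and counted once, leaving 2 values per group, limma called 0 of the 41091 probe sets in either direction, with 2747 at an unadjusted p under 0.05 against 6796 in the fit of all 6 arrays. Each of the 5 called probe sets stayed lower in MBD2 cells in all of these fits.

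**Figure D1:**
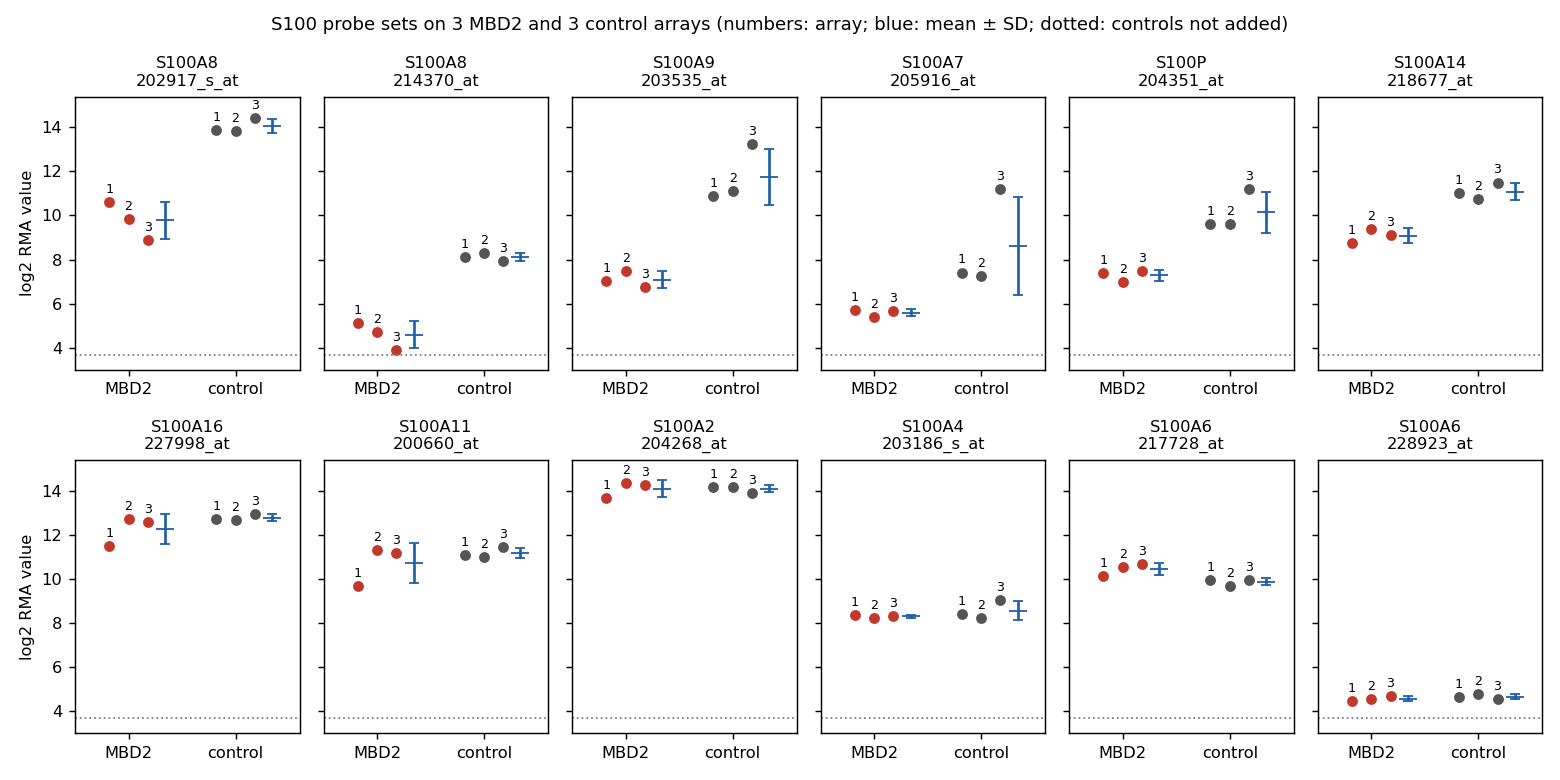
Log2 expression of the 12 S100 probe sets on each of the 6 arrays, with MBD2 arrays left of control arrays in each panel; numbered points are single arrays, blue marks are the group mean ± SD, and the dotted line is the highest value of control transcripts not added to the sample. The MBD2 points lie below every control point for S100A8, S100A9, S100A7, S100P and S100A14, and control array 3 stands above the other 2 control arrays for S100A7, S100A9 and S100P.

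S100A8 and S100A9 encode the subunits of calprotectin, a secreted complex that withholds zinc and manganese from microbes and is abundant in neutrophils and monocytes as well as in stressed epithelium. S100A8 at 202917_s_at read 10.61, 9.82 and 8.89 on the MBD2 arrays and 13.89, 13.85 and 14.43 on the control arrays. The groups were far apart, although MBD2 array 1 lay 1.25 above the mean of the other 2 MBD2 arrays. The means were 9.78 ± 0.86 in MBD2 cells and 14.05 ± 0.33 in control cells (SD, n = 3 each), a log2 fold change of -4.28 (SE 0.44, 95% interval -5.37 to -3.19, limma, adjusted p = 0.0185), or 19.4-fold lower. The second S100A8 probe set, 214370_at, gave 5.13, 4.72 and 3.90 on the MBD2 arrays and 8.10, 8.31 and 7.92 on the control arrays, a log2 fold change of -3.52 (SE 0.32, limma, adjusted p = 0.0139). Both probe sets thus fell, by 19.4-fold and 11.5-fold, and in both MBD2 array 1 was the highest of its group. These folds are bounded by the array's range, since the highest value of 202917_s_at lay 0.31 under the highest value in the whole table, and the lowest value of 214370_at lay 0.23 above the brightest probe sets for transcripts not added to the sample.

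S100A9 at 203535_at had 7.02, 7.50 and 6.75 on the MBD2 arrays against 10.90, 11.13 and 13.23 on the control arrays. All MBD2 arrays were below all control arrays, and control array 3 stood 2.21 above the mean of control arrays 1 and 2. The means of 7.09 ± 0.38 in MBD2 cells and 11.76 ± 1.28 in control cells (SD, n = 3 each) gave a log2 fold change of -4.66 (SE 0.64, 95% interval -6.23 to -3.10, limma, adjusted p = 0.0347), or 25.4-fold lower. With each array left out in turn the log2 fold change stayed between -5.09 and -3.93 for S100A9, between -4.70 and -3.84 for S100A8 at 202917_s_at and between -3.80 and -3.18 at 214370_at. The adjusted p over those 6 limma fits ran over 0.0165 to 0.164 for S100A9, over 0.00346 to 0.109 for S100A8 at 202917_s_at and over 0.00349 to 0.102 at 214370_at.

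Since calprotectin is also a leukocyte product, 11 leukocyte genes were read beside it. Their summed linear level, at each gene's probe set of highest mean, was 602.9 to 801.1 on the MBD2 arrays and 1425 to 2212.7 on the control arrays. CD14, a lipopolysaccharide co-receptor, had 8.27, 6.70 and 6.57 on the MBD2 arrays against 10.07, 9.88 and 10.79 on the control arrays (log2 fold change -3.07, limma, adjusted p = 0.0508), and the sum of the other 10 genes was 493.2 to 516.1 on the MBD2 arrays and 440.4 to 539.0 on the control arrays. A second probe set of the myeloid integrin ITGAM, 205786_s_at, outside that sum, was also lower on every MBD2 array, at 3.93, 3.98 and 3.90 against 4.23, 4.34 and 7.26 on the control arrays (log2 fold change -1.34, limma, adjusted p = 0.478). Of the 26 leukocyte probe sets, 3 had every MBD2 array below every control array and 4 above, against 12.3% and 10.4% of all probe sets. Those above were 2 of PTPRC, 1 of ITGB2 (1555349_a_at, log2 fold change 0.68) and CSF1R. CSF1R read 6.61, 6.28 and 6.42 on the MBD2 arrays against 6.12, 6.15 and 5.60 on the control arrays. None of the 26 leukocyte probe sets was called, against 0.978% lower and 0.898% higher of all probe sets, which does not set them apart. The part of such cells in the S100 values was not tested, and PTPRC, LYZ and TYROBP were below 5 on every array.

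S100P, which encodes a calcium-binding protein first isolated from placenta and made in many carcinomas, is the 1 gene of the 10 outside the chromosome 1 cluster. It read 7.39, 6.98 and 7.47 at 204351_at on the MBD2 arrays against 9.60, 9.63 and 11.22 on the control arrays. Here too the groups did not overlap and control array 3 was the highest, by 1.61 over the mean of the other 2 control arrays. S100P averaged 7.28 ± 0.26 in MBD2 cells and 10.15 ± 0.93 in control cells (SD, n = 3 each), a log2 fold change of -2.87 (SE 0.46, limma, adjusted p = 0.0479), or 7.31-fold lower. Its call was the nearest of the 5 to the threshold, and with 1 array left out the fold change ranged over -3.15 to -2.34 and the adjusted p over 0.0201 to 0.195 in the 6 limma fits.

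S100A14, an epithelial member of the family, had 8.76, 9.41 and 9.10 at 218677_at in the MBD2 group against 11.02, 10.74 and 11.50 in the control group. The groups were separate, and control array 3 was the highest, by 0.62 over the mean of the other 2 control arrays. The log2 fold change was -2.00 (SE 0.25, limma, adjusted p = 0.0288), a 3.99-fold difference between means of 9.09 ± 0.32 in MBD2 cells against 11.09 ± 0.38 in control cells (SD, n = 3 each). The leave-out values for S100A14 spanned -2.17 to -1.79, with limma adjusted p of 0.0111 to 0.144.

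S100A7, the antimicrobial protein psoriasin, was not called although its groups were separate. Its probe set 205916_at gave 5.69, 5.40 and 5.67 on the MBD2 arrays, close together, against 7.41, 7.23 and 11.20 on the control arrays. The mean of 5.59 ± 0.16 in MBD2 cells stood against 8.61 ± 2.24 in control cells (SD, n = 3 each), and the log2 fold change of -3.03 had an SE of 1.07 (limma, adjusted p = 0.244). Control array 3 exceeded the mean of control arrays 1 and 2 by 3.88. Without it the difference was -1.73 with an adjusted p of 0.0214 (limma). The fold rule of the methods, taken as a ratio under 0.5 to the control mean on each MBD2 array, involves no test. By that rule S100A7 did pass, with the MBD2 arrays at -2.92, -3.22 and -2.94 from the control mean.

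**Figure D2:**
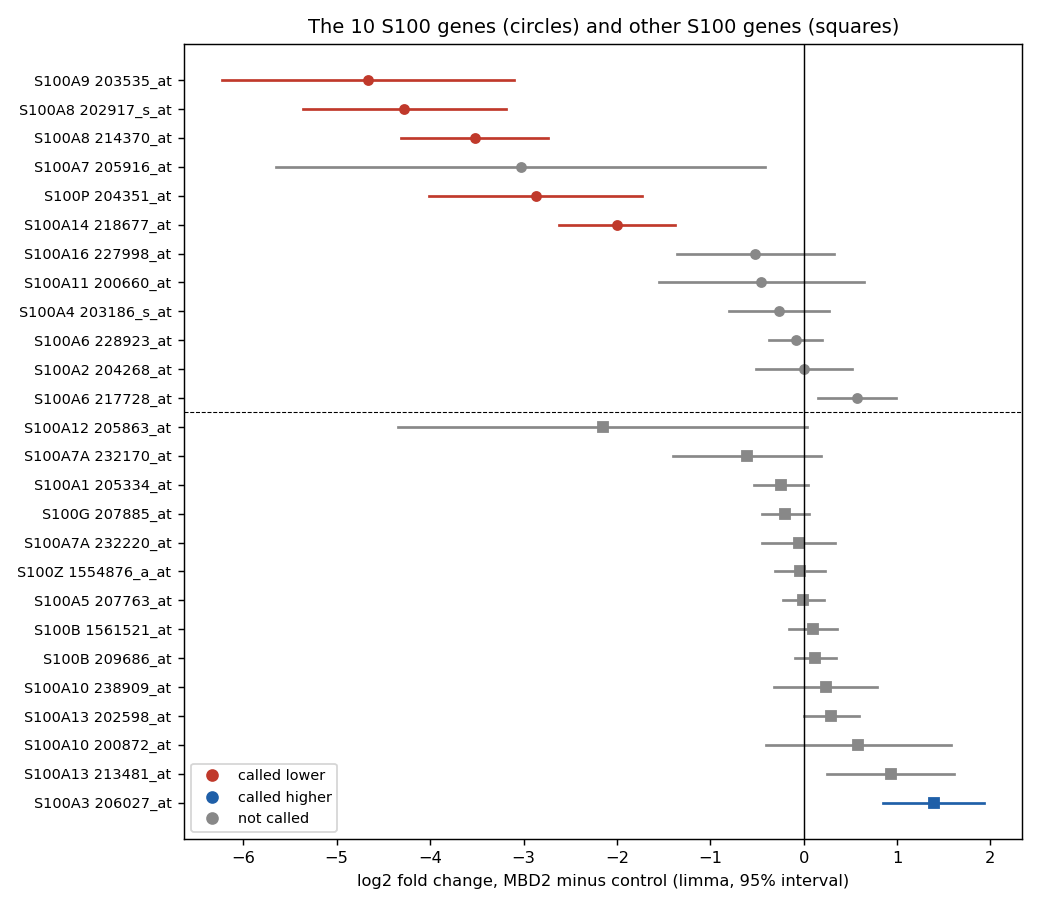
Log2 fold change (MBD2 minus control, horizontal axis) of the 12 probe sets of the 10 S100 genes (circles) and the 14 of other S100 genes (squares), with bars for the 95% interval of the limma fit; red is called lower, blue called higher and grey not called. The 5 probe sets called lower lie between -4.66 and -2.00, while the intervals of S100A16, S100A11, S100A4 and S100A2 include 0.

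The remaining 5 genes gave no call in either direction. S100A16, whose gene adjoins S100A14 on chromosome 1, read 11.47, 12.73 and 12.58 on the MBD2 arrays and 12.71, 12.68 and 12.95 on the control arrays at 227998_at. Only MBD2 array 1 was apart, at -1.18 from the mean of the other 2 MBD2 arrays, and the log2 fold change of -0.52 had a 95% interval of -1.36 to 0.32 (limma, adjusted p = 0.511). S100A11, a partner of annexin A1 that takes part in growth control of keratinocytes, had 9.69, 11.32 and 11.16 on the MBD2 arrays against 11.10, 10.97 and 11.45 on the control arrays at 200660_at. Its log2 fold change was -0.45 (95% interval -1.55 to 0.65, limma, adjusted p = 0.668) and became 0.062 without MBD2 array 1, whose distance from the mean of the other 2 was -1.55.

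S100A2, a basal epithelial gene first described as lost in breast tumour cells, was 13.66, 14.37 and 14.26 on the MBD2 arrays against 14.19, 14.17 and 13.92 on the control arrays at 204268_at. The groups overlapped, with a log2 fold change of 0.0038 (SE 0.21, limma, adjusted p = 0.995), and the highest value was 0.37 under the highest in the whole table. S100A4, known as metastasin and a binder of nonmuscle myosin, had 8.34, 8.21 and 8.33 on the MBD2 arrays against 8.41, 8.23 and 9.02 on the control arrays at 203186_s_at (log2 fold change -0.26, SE 0.22, limma, adjusted p = 0.604). The groups overlapped, and the highest value was that of control array 3.

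S100A6, or calcyclin, a binder of co-chaperones and annexins, was the 1 gene of the 10 with every MBD2 array above every control array. At 217728_at it read 10.14, 10.52 and 10.66 on the MBD2 arrays against 9.96, 9.70 and 9.95 on the control arrays. The means were 10.44 ± 0.27 in MBD2 cells and 9.87 ± 0.15 in control cells (SD, n = 3 each), a log2 fold change of 0.57 (SE 0.17, limma, adjusted p = 0.184). It passed in 1 of the 6 leave-out fits, at 0.72 with an adjusted p of 0.0248 (limma) without MBD2 array 1. The second S100A6 probe set, 228923_at, was between 4.45 and 4.75 on all 6 arrays and its groups overlapped (log2 fold change -0.08, limma, adjusted p = 0.77).

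Because MBD2 binds methylated CpG, the CpG content of the promoters is set beside these values. The RefSeq windows used (GRCh38.p14) take 250 bases before and 50 after a transcription start, and all 10 genes had at least 1. Windows of the 4 genes that fell and of S100A6 are shown, the last because it had the most CpG of the 10 genes and was the 1 with every MBD2 array above the controls. For S100A8, with 3 windows, the middle one is given. Each is written along its gene's strand with CG and TATAAA in capitals.
S100A8, chr1:153391024-153391323, minus strand: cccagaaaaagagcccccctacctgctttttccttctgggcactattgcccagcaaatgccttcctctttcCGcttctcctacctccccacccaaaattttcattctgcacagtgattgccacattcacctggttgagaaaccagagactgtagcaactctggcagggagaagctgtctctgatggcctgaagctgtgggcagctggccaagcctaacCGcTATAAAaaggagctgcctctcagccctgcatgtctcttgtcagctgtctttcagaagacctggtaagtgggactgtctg
S100A9, chr1:153357604-153357903, plus strand: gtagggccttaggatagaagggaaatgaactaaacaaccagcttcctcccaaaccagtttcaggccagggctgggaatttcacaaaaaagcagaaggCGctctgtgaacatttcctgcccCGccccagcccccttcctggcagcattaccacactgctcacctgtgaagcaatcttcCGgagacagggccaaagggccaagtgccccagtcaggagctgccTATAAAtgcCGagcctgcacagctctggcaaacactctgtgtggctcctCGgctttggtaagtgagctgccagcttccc
S100P, chr4:6693628-6693927, plus strand: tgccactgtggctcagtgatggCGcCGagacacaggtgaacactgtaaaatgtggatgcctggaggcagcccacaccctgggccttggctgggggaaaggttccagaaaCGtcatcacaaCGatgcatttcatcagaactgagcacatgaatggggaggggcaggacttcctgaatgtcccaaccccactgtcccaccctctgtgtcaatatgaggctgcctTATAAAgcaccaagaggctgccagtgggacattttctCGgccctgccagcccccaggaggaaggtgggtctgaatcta
S100A14, chr1:153616276-153616575, minus strand: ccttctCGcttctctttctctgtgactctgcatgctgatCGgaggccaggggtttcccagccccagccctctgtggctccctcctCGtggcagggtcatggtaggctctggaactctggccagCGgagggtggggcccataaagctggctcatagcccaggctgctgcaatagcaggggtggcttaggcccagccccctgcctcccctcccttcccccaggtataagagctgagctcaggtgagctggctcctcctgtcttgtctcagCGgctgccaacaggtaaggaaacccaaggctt
S100A6, chr1:153535942-153536241, minus strand: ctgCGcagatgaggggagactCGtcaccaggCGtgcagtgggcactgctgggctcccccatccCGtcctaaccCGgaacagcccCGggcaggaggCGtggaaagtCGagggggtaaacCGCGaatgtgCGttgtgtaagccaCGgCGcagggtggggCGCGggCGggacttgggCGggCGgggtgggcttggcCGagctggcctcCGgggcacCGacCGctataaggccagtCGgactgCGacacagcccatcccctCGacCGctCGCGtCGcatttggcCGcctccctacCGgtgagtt

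The windows of the genes that fell held few CpG dinucleotides: 2 in S100A8 (in each of its 3 windows), and 5 each in S100A9, S100P and S100A14. Low counts were common, since the median over 35116 promoter windows was 14 with quartiles of 4 and 28, and 41.57% of windows had 8 or fewer. Of the 10 genes, 8 had 8 or fewer in every window used, among them S100A2, S100A4 and S100A16, which gave no call, while S100A11 had 22 and S100A6 had 31. Low counts were thus found both among the genes that fell and among genes without a call. S100A11 and S100A6, with more, also gave no call, and the part of CpG content was not tested. The letters TATAAA, the core of the TATA box, were found on the gene's strand in a window of 5 of the 10 genes. The same held for 5 of the 9 other S100 genes with a window, so it was not particular to the 10. Over all windows the share was 7.33%, counted by window and not by gene. The letters began at position -29 from the start in the windows of S100A8 and S100A9 shown, at -28 in S100P and S100A7, and at -31 in S100A4. Their place between 40 and 20 bases before the start is shared by 2.3% of all windows. The S100A14 and S100A6 windows held no TATAAA on that strand, and S100A4 held it without a call. Only these exact letters were searched. Both the S100A14 and the S100A6 window shown hold the related letters TATAAG, so they are not thereby without a TATA-like sequence. The AP-1 motif TGANTCA, which reads the same on both strands and does not overlap TATAAA, was in 7.71% of all windows and in a window of 1 of the 10 genes, S100A2. These matches describe letters in the reference, and no methylation or binding was measured on these arrays.

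**Figure D3:**
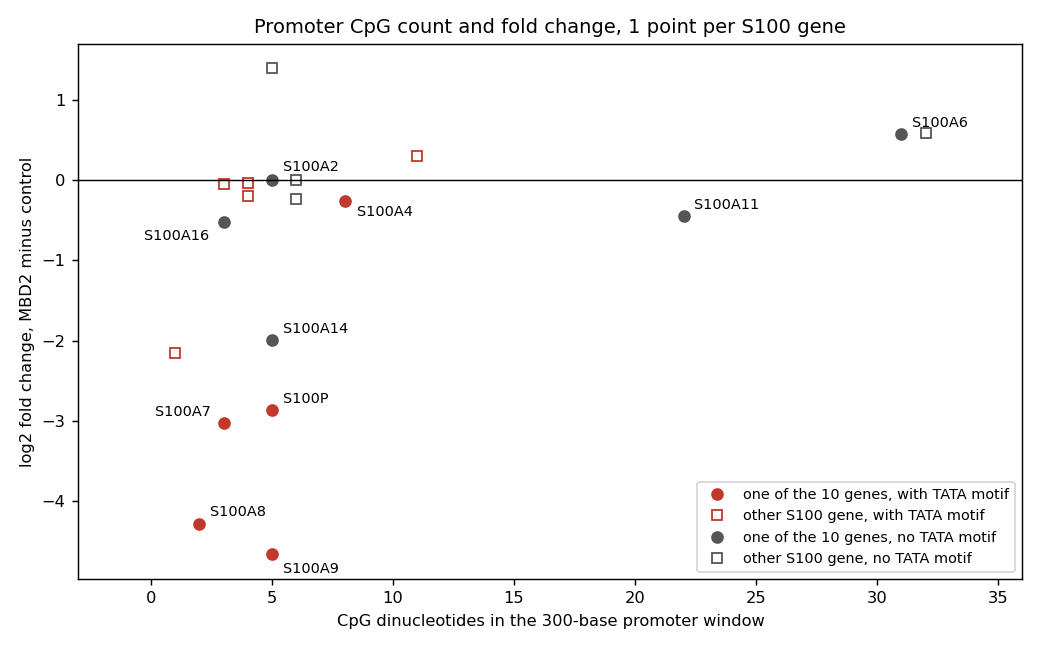
Number of CpG dinucleotides in a 300-base promoter window (horizontal axis) against the log2 fold change, MBD2 minus control (vertical axis), with 1 point per S100 gene at its probe set of highest mean and, for genes with several windows, the middle or later one by position. Filled circles are the 10 genes, open squares other S100 genes, and red marks those with TATAAA in that window; low-CpG windows occur at fold changes from -4.66 to 1.39.

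The other S100 genes were read beside these. Of 11 further S100 genes, 10 were measured by 14 probe sets, of which 0 were called lower and 1 higher. Over all probe sets the shares were 0.978% and 0.898%, so 0 of 14 called lower does not set these genes apart. Their median log2 fold change was 0.05 beside -0.0047 for all probe sets. The 1 that rose was S100A3, which encodes a cysteine-rich protein of the hair cuticle, with 7.76, 8.01 and 7.99 at 206027_at on the MBD2 arrays against 6.98, 6.18 and 6.43 on the control arrays. No array overlapped between groups (log2 fold change 1.39, SE 0.22, limma, adjusted p = 0.047), but the call was lost without MBD2 array 2, MBD2 array 3 or any 1 of the 3 control arrays. S100A12, the third of the calgranulins beside S100A8 and S100A9, was 5.08, 5.07 and 5.04 on the MBD2 arrays against 5.89, 6.40 and 9.36 on the control arrays at 205863_at. As with S100A7, the groups were separate, control array 3 stood far above the others (by 3.22) and the test was not passed (log2 fold change -2.15, SE 0.89, limma, adjusted p = 0.308). S100A10, the partner of annexin A2, had a log2 fold change of 0.59 at 200872_at (limma, adjusted p = 0.53), and 1 of the 2 S100A13 probe sets, 213481_at, had 0.93 (limma, adjusted p = 0.184).

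The fused-type S100 genes join an S100 domain to long repeats and act in the cornified envelope. Of 7 listed, 5 were measured with 1 probe set each, and the median log2 fold change was -0.42. None was called, against 0.978% lower and 0.898% higher of all probe sets. Cornulin (CRNN) was the only 1 of them above 5 on any array, at 4.78, 4.28 and 4.46 on the MBD2 arrays against 5.58, 5.61 and 9.39 on the control arrays. The value on control array 3 again set the mean apart (log2 fold change -2.36, limma, adjusted p = 0.336).

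Other genes of the cluster also fell. The region that holds 16 measured S100A genes, 9 of them among the 10 described here, spans 1.651 Mb, and 24 further genes within it were measured by 30 probe sets. Of these 30, 6 were called lower and 0 higher, against 0.978% and 0.898% of all probe sets, with a median of -0.13. The called ones were small proline-rich cornified envelope precursors and involucrin (IVL), a scaffold of the same envelope, together with the transcript CCDST. SPRR1B fell at 205064_at, with 7.71, 6.94 and 7.30 on the MBD2 arrays against 12.79, 12.77 and 12.84 on the control arrays (log2 fold change -5.48, SE 0.20, limma, adjusted p = 0.00148). Its 3 control arrays differed little (SD 0.04), where those of S100A9 had an SD of 1.28. SPRR1A changed by -5.27 at 213796_at and by -2.94 at 214549_x_at, SPRR3 by -3.96 at 232082_x_at, CCDST by -2.37 at 241014_at and IVL by -1.62 at 214599_at, with limma adjusted p between 0.0229 and 0.0448. The other SPRR3 probe set, 218990_s_at, had -4.13 and did not pass (limma, adjusted p = 0.0789). At the other CCDST probe set, 1570423_at, the groups overlapped (log2 fold change -0.065, limma, adjusted p = 0.854). The count depended on single arrays: 1 of 30 was called without MBD2 array 2, MBD2 array 3, control array 1 or control array 2, but 7 without MBD2 array 1 and 8 without control array 3.

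**Figure D4:**
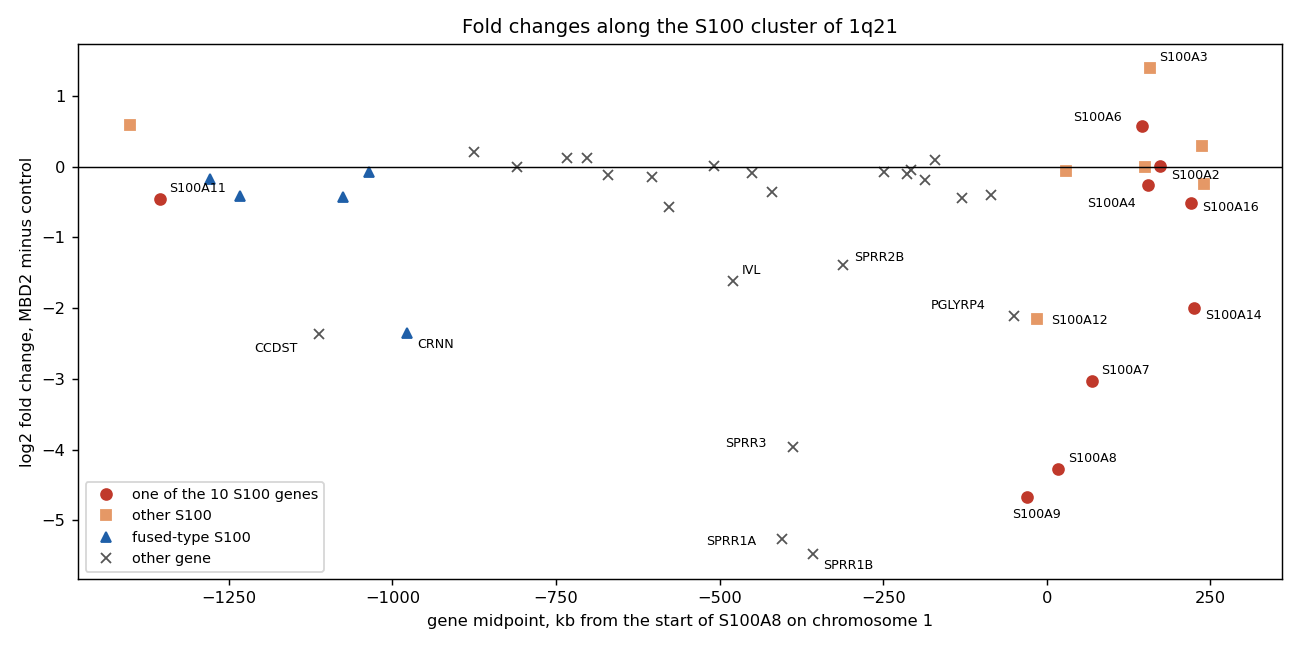
Log2 fold change (MBD2 minus control, vertical axis) of each measured gene against the distance of its midpoint from the start of S100A8 on chromosome 1 in kb (horizontal axis), at the probe set of highest mean. S100A9, S100A8, S100A7 and S100A14 lie at -2.00 or below within 250 kb of that start, among S100A2, S100A4, S100A6 and S100A16 between -0.52 and 0.57, and SPRR1A, SPRR1B and SPRR3 lie at -3.96 or below, left of them.

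Intracellular partners of S100 proteins were read next. Of 12 listed genes, 11 were measured by 33 probe sets, and 2 were called higher and 0 lower, against 0.898% and 0.978% of all probe sets, with a median log2 fold change of 0.11. MYH9, the nonmuscle myosin heavy chain bound by S100A4, rose at 211926_s_at, with 8.81, 9.26 and 9.39 on the MBD2 arrays against 8.01, 7.89 and 7.48 on the control arrays (log2 fold change 1.36, SE 0.21, limma, adjusted p = 0.0447). S100PBP, which encodes a nuclear protein that binds S100P, rose at 222610_s_at, with 7.49, 7.61 and 7.67 on the MBD2 arrays against 6.72, 6.62 and 6.86 on the control arrays (log2 fold change 0.85, SE 0.11, limma, adjusted p = 0.0312). S100P and the gene for its binding protein thus had called changes of opposite sign, although the other S100PBP probe set, 218370_s_at, had 0.69 and did not pass (limma, adjusted p = 0.0952). The 3 annexin A2 (ANXA2) probe sets of high level, 201590_x_at, 210427_x_at and 213503_x_at, had log2 fold changes between 0.45 and 0.50, and annexin A1 (ANXA1) had -0.56 at 201012_at, none of them called.

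Receptors for extracellular S100 proteins were called in neither direction, against 0.978% lower and 0.898% higher of all probe sets. The 6 genes had 16 probe sets with a median of -0.08. AGER, which encodes RAGE, the receptor of several S100 proteins, was between 4.37 and 5.74 on all arrays at its 2 probe sets, and TLR4, a receptor of calprotectin, was between 3.13 and 4.86 at its 4. Basigin (BSG), a receptor of S100A9, read 8.70, 8.21 and 8.14 on the MBD2 arrays against 9.86, 9.73 and 9.04 on the control arrays (log2 fold change -1.19, SE 0.27, limma, adjusted p = 0.103). The scavenger receptor CD36, which is reported to take up fatty acids carried by calprotectin, read 5.12, 3.12 and 3.35 on the MBD2 arrays against 7.77, 8.23 and 11.72 on the control arrays at 228766_at, with separate groups and no call (log2 fold change -5.38, SE 1.15, limma, adjusted p = 0.092). MBD2 arrays 2 and 3 were there below the brightest transcripts not added to the sample (3.63 and 3.67 on those arrays), so the size of that difference is not fixed. It was the most negative of the 5 CD36 probe sets. Of the others, 209555_s_at had -3.89 and 206488_s_at -2.49, both with separate groups and no call, while 209554_at had -0.44 and 242197_x_at -0.04. Over partners and receptors together, 0 were called higher without MBD2 array 2, MBD2 array 3, control array 1 or control array 2, 1 without control array 3 and 8 without MBD2 array 1, and up to 3 were called lower.

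Finally, the genes with the most similar profile were taken by root mean square distance over the 6 arrays after centring each gene on its mean, among 19749 genes. To the mean profile of S100A8 and S100A9 the nearest were CWH43 (distance 0.276), PROM2 (0.347) and GRHL1 (0.35), the last a grainyhead transcription factor of epithelia. CWH43 read 5.20, 5.02 and 4.95 on the MBD2 arrays against 8.81, 9.28 and 10.38 on the control arrays. To S100P the nearest were OLFML2A (0.217), FUT3 (0.271), a fucosyltransferase of the Lewis antigens, and SFTPD (0.276), which encodes surfactant protein D. SFTPD had 5.68, 5.38 and 5.70 on the MBD2 arrays against 7.35, 7.58 and 8.90 on the control arrays. All of these share the 6 arrays with the genes they resemble, and, like S100A9 and S100P, CWH43 and SFTPD were highest on control array 3.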

How the data were processed

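Total RNA was hybridized to 6 arrays, 3 MBD2 and 3 control, grouped by the treatment and title labels. The authors processed the arrays with RMA in the affy package and deposited log2 expression values, 54675 probe sets per array; versions and the genome build are not given in the sources used here. RMA places the arrays on a common distribution, so a shift of all genes would not be seen. Platform annotation gave 41091 probe sets 1 symbol, 1801 several and 11721 none; 62 were array controls. Each of the 41091 was fitted with limma 3.58.1 in R 4.3.3 (lmFit on group, eBayes) with Benjamini-Hochberg adjustment over all, and called at an adjusted p under 0.05 and at least 1.5-fold. An exact permutation test of 3 against 3 arrays cannot go below p = 0.1 and was not used. The self-test drew simulated data. The 10 genes and all lists were chosen with earlier results of these data known. Named genes were the 10 genes at every probe set, called genes of each list, and those largest or separate within a list. Alternatives were the probe set per gene, a level filter, centring, quantile normalization, eBayes options, blocks, other call rules and left-out arrays. Promoter windows came from RefSeq.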

Additional observations from a re-analysis of the deposited data

How the results depend on the processing

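The 5 called S100 probe sets kept their direction under every alternative run, but their calls did not hold throughout. Among the 12 S100 probe sets, 0 were called lower with replicate number as a block and 0 with the near-identical arrays averaged; leaving out 1 array gave 0 to 6 lower and 0 to 1 higher, and leaving out control array 3 and MBD2 array 1 together gave 1 higher. S100A7 passed in the last fit (-1.79), without control array 3 alone, and by the fold rule of the methods. The hybridization-control block sets MBD2 array 1 alone against the 3 control arrays, since the low level holds no control array, so its values below describe that array and are no check on the group. Deviations of same-numbered arrays from their group means correlated at 0.167, -0.273 and 0.215. Such values follow the nearly alike arrays within each group, so they cannot decide whether same-numbered arrays were paired. Over all probe sets, 402 lower and 369 higher of 41091 became 253 and 196 of 19775 genes with the mean of all probe sets per gene, 245 and 244 of 26742 without shared-sequence endings (both test fewer items), 23 and 1 with the replicate block, 0 and 0 with arrays averaged, 4094 and 6380 with both arrays left out, 248 and 222 with the hybridization block; the fold rule of the methods gave 1230 higher, and leaving out 1 array gave 18 to 1924 lower and 2 to 3616 higher. The 6 neighbours called lower became 2 with the replicate block, 0 averaged, 1 with the hybridization block and 1 to 8 with 1 array left out. For the other S100 and fused-type genes together (19 probe sets), 1 higher became 0 with eBayes trend and robust, the replicate block, averaging or the hybridization block, 3 higher and 2 lower with both arrays left out, 2 lower by the fold rule, and 0 to 2 higher with 1 array left out. For partners and receptors, 2 higher became 0 without shared endings, the replicate block or averaging, 1 with trend and robust, the hybridization block or at least 2-fold, 8 higher and 8 lower with both left out, 1 lower with the hybridization block, 4 lower by the fold rule, and 0 to 8 higher and 0 to 3 lower with 1 array left out. Uncalled values changed sign for S100A11 (0.20 with both arrays left out, 0.062 without MBD2 array 1, -0.75 to 0.062 with 1 array left out), S100A2 (-0.10 with housekeeping centring, -0.021 with quantile normalization, -0.060 averaged, -0.43 with the hybridization block, and -0.13 to 0.22 with 1 array left out) and S100A6 at 228923_at (0.24 as a mean with 217728_at). Housekeeping centring moved the median of all probe sets to -0.11. Apart from the fits with fewer arrays, the cause was not tested. Few arrays limit the precision throughout.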

Other observations

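Single arrays stood apart in sets of genes that were not the same. Control array 3 exceeded the mean of control arrays 1 and 2 by 3.88 for S100A7, 3.80 for CRNN, 3.22 for S100A12, 2.21 for S100A9 and 1.61 for S100P, but by 0.56 for S100A8 at 202917_s_at, and at 214370_at it was 0.28 lower (-0.28). The annexin A1 (ANXA1) probe set 233011_at read 5.70, 4.26 and 3.81 on the MBD2 arrays against 5.69, 5.71 and 11.95 on the control arrays, whereas the other ANXA1 probe set, 201012_at, was between 12.17 and 13.49 on all 6. MBD2 array 1 lay under the mean of MBD2 arrays 2 and 3 in S100A11 (-1.55), S100A10 at 200872_at (-1.21), S100A16 (-1.18) and S100A2 (-0.65), and over it in S100A8 (1.25 at 202917_s_at and 0.82 at 214370_at). On that array COL3A1 read 8.90 at 215076_s_at, against 4.99 and 4.92 on the other 2 MBD2 arrays and 5.28, 5.21 and 4.84 on the control arrays, and LUM read 9.63 at 201744_s_at, against 4.03 and 6.27 on the other 2 MBD2 arrays and 7.48, 8.03 and 7.08 on the control arrays. The part of either array's handling in these values was not tested.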
